A study of Mus musculus with 18 samples.

Results

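COX2 and ND3 are protein-coding genes of the mouse mitochondrial genome, and their RNA was followed across 18 arrays of mouse mammary cells. The array annotation writes both symbols in upper case, and together they are 2 of 19938 genes with a probe set assigned to a single gene. They were chosen on measured values, because their signal was close to background in one cell line and high in its co-culture fractions. Their levels and differences are therefore given as a description, with no test. Each gene has 2 single-gene probe sets, and the one with the higher mean over all arrays was used (10353630 for COX2 and 10598055 for ND3). In the reference gene table COX2 lies between the tRNA genes TrnD and TrnK, and ND3 between TrnG and TrnR. None of the other 11 mitochondrially encoded protein genes in that table has a single-gene probe set (0 genes).

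The study compared 6 groups of 3 arrays each. Comma-D cells, a line of mammary epithelium from a normal mouse, were grown in DMEM/F12 with serum, insulin and EGF. MMTV-neu cells, a line from mammary tumours that carry the neu (erbB2) oncogene under a mammary tumour virus promoter, were grown in DMEM with more serum and without the added insulin and EGF. Co-cultures of the lines at 1:50 and 1:1 were grown in the Comma-D medium and split by antibody to erbB2 and magnetic separation into an erbB2-negative and an erbB2-positive fraction. The labels do not state in words which line makes up the 50 parts. The labels call Comma-D and both erbB2-negative fractions normal, without erbB2 or its phosphorylated form. They call MMTV-neu and the 1:1 erbB2-positive fraction cancer, with both forms, and the 1:50 erbB2-positive fraction redirected, with erbB2 but without phosphorylated erbB2. Line and medium cannot be told apart in any comparison with unmixed MMTV-neu. Nothing in the labels says that the 3 samples of a group came from separate cultures, so every spread and p-value below measures only the spread between these samples.

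Mitochondrial DNA encodes a small set of subunits of the respiratory chain, and nuclear genes encode the rest. COX2 is a catalytic subunit of complex IV (cytochrome c oxidase), whose copper centre takes up the electrons of cytochrome c. ND3 is a membrane subunit of complex I (NADH dehydrogenase). Both genes lie on the same strand of the mitochondrial genome and are cut from a shared long precursor RNA, after which each messenger is polyadenylated and degraded at its own rate. Mitochondrial DNA copy number, transcription by the mitochondrial polymerase POLRMT with TFAM and TFB2M, and RNA processing all set the amounts of these messengers.

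The values are log2 signals, and levels on different probe sets cannot be set against each other, so COX2 and ND3 are compared only through their changes. The arrays themselves differed between groups. The median of all probe sets on an array was 6.01 to 6.03 in Comma-D, 6.45 to 6.48 in MMTV-neu and 6.28 to 6.41 in the 1:1 erbB2-positive fraction, and the spread of values on an array was narrowest in MMTV-neu (SD 1.51 to 1.55, against 1.97 to 1.99 in Comma-D). Of 9 epithelial markers, 8 lay above the array median in each line. The exceptions were Krt19 in Comma-D and Epcam in MMTV-neu. The symbol COX2 is also used for the product of Ptgs2, the inducible prostaglandin synthase. Ptgs2 has its own probe set, where the signal was 11.37 ± 0.024 (SD, n = 3) in Comma-D and 6.80 ± 0.26 in MMTV-neu. The 1:50 erbB2-negative fraction read 10.80, the 1:1 erbB2-negative 10.71, the 1:50 erbB2-positive 10.45 and the 1:1 erbB2-positive 8.96 ± 0.30. Ptgs2 was thus lower in MMTV-neu than in Comma-D, as was mitochondrial COX2 below, but it stayed above the array medians there. Among the fractions, its change from Comma-D departed from that of COX2 most in the 1:1 erbB2-positive fraction.

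COX2 gave a strong signal in Comma-D and in all 4 co-culture fractions and a signal near background in MMTV-neu. The log2 signal on the 3 Comma-D arrays was 12.45, 12.39 and 12.45. On the 3 MMTV-neu arrays it was 5.46, 4.71 and 4.97. All MMTV-neu arrays were lower than all Comma-D arrays, with a difference between the means of -7.38 log2 units (SE 0.17), or 167-fold. On the MMTV-neu arrays COX2 was brighter than only 10.3% to 25.3% of all probe sets, whereas on the Comma-D arrays it exceeded 99.4% of them. The size holds for this probe set on the deposited scale. It was -5.99 with the arrays centred on 9 reference genes and -7.00 on the other probe set. In bulk RNA, fewer cells that hold a messenger and less messenger per cell cannot be told apart.

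In the fractions COX2 lay close to its Comma-D level. The 1:50 erbB2-negative arrays read 12.28, 12.43 and 12.10, and the 1:50 erbB2-positive arrays 12.71, 12.65 and 12.58. The 1:1 erbB2-negative arrays read 12.56, 12.47 and 12.59, and the 1:1 erbB2-positive arrays 11.87, 12.23 and 12.57. Every fraction array was far above every MMTV-neu array, and the fractions lay 7.18 to 7.60 log2 units above the MMTV-neu mean. Ordered by mean level, COX2 was highest in the 1:50 erbB2-positive fraction (12.64), followed by the 1:1 erbB2-negative fraction (12.54), Comma-D (12.43), the 1:50 erbB2-negative fraction (12.27), the 1:1 erbB2-positive fraction (12.22) and MMTV-neu (5.05). Of the 5 steps between neighbours in this order, only that from the 1:1 erbB2-negative fraction to Comma-D, of 0.11, and that down to MMTV-neu separated all arrays of one group from all of the next. These levels are near the top of the scale, since the highest value on any array was 13.79 to 14.05. Whether the array signal flattens in that range was not tested.

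ND3 was likewise near background in MMTV-neu but graded in the fractions. Its log2 signal was 11.35, 11.30 and 11.35 on the Comma-D arrays. On the MMTV-neu arrays it was 5.09, 4.53 and 4.73. The MMTV-neu mean differed from Comma-D by -6.55 log2 units (SE 0.17), or 93.6-fold, with no overlap of the arrays. ND3 in MMTV-neu was brighter than only 6.95% to 15.8% of the probe sets on an array. The difference was -5.15 with centring and -5.70 on the other probe set.

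The fractions of the 1:50 co-culture held ND3 near its Comma-D level, and the 1:1 erbB2-positive fraction did not. The 1:50 erbB2-negative arrays read 11.08, 11.25 and 11.07, and the 1:50 erbB2-positive arrays 11.31, 11.55 and 11.45. The 1:1 erbB2-negative arrays read 10.46, 10.85 and 10.96, and the 1:1 erbB2-positive arrays 9.19, 9.69 and 9.82. All 3 arrays of the 1:1 erbB2-positive fraction lay below every array of Comma-D and of the other fractions, and far above MMTV-neu. The mean of that fraction was 4.79 log2 units above MMTV-neu and differed by -1.76 from Comma-D (SE 0.17), which is 29.5% of the Comma-D signal. The difference of the 1:1 erbB2-negative fraction from Comma-D was -0.57 on the deposited scale but -0.11 with centring. With centring the 1:50 erbB2-negative and erbB2-positive fractions stood at -0.20 and 0.34. The order of ND3 was the 1:50 erbB2-positive fraction (11.44), Comma-D (11.33), the 1:50 erbB2-negative fraction (11.13), the 1:1 erbB2-negative fraction (10.76), the 1:1 erbB2-positive fraction (9.57) and MMTV-neu (4.78). The top step, from the 1:50 erbB2-positive fraction to Comma-D, overlapped, and the other 4 steps did not on this probe set. The step of 0.37 between the erbB2-negative fractions was 0.14 with overlap on the other probe set. With centring it was -0.084, so no direction is given for it.

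**Figure D1:**
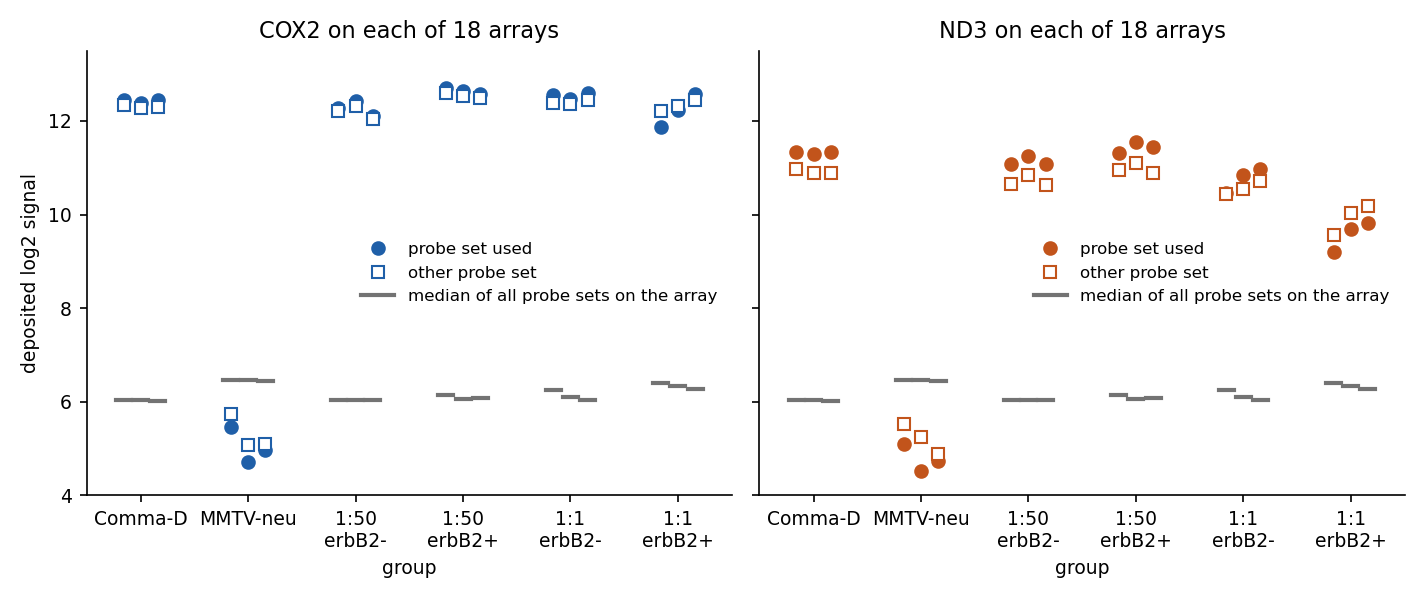
Deposited log2 signal of COX2 (left) and ND3 (right) on each of the 18 arrays, by group, for the probe set used (filled circles) and the other single-gene probe set of the gene (open squares). Grey dashes mark the median of all probe sets on the same array. Both genes lie below those medians only in MMTV-neu, and ND3 lies between its Comma-D and MMTV-neu levels in the 1:1 erbB2-positive fraction, where COX2 stays close to Comma-D.

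The difference between the 2 genes can be read within each array, where a shift of the whole array cancels. The change of ND3 from its Comma-D mean minus the change of COX2 from its own was -0.035 ± 0.096 (SD, n = 3) log2 units in the 1:50 erbB2-negative fraction and -0.11 ± 0.17 in the 1:50 erbB2-positive fraction. On the probe sets used, the arrays of each of these fractions had values of both signs. The other pairings of probe sets gave the 1:50 erbB2-positive fraction means of -0.16, -0.13 and -0.17, negative on every array. In the 1:1 co-culture the same quantity was -0.68 ± 0.28 in the erbB2-negative fraction and -1.55 ± 0.10 in the erbB2-positive fraction. In the latter the values of the 3 arrays ran from -1.64 to -1.44. After quantile normalization that mean difference was -1.18. In MMTV-neu the value was 0.84 ± 0.10, opposite in sign. Both signals were near background there (means 5.05 for COX2 and 4.78 for ND3). That sign therefore does not show which messenger was lower by more.

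On the other ND3 probe set (10598049) the groups kept the same order by mean, but the arrays of the erbB2-negative fractions overlapped. There the difference from Comma-D was -5.70 log2 units in MMTV-neu and -0.996 in the 1:1 erbB2-positive fraction, or 50.1% of the Comma-D signal by the arrays' mean log2 level. On the other COX2 probe set (10598038) MMTV-neu differed from Comma-D by -7.00 and the 1:1 erbB2-positive fraction by 0.014. This placed that fraction, at 12.32, 3rd among the groups for COX2, above Comma-D at 12.31, where the probe set used placed it 5th. The 4 pairings of a COX2 with an ND3 probe set placed the within-array difference of the 1:1 erbB2-positive fraction between -0.79 and -1.78, negative on every array. The size of the gap thus depended on the ND3 probe set, and its sign did not. The pair was chosen in part for this difference, so the gap is a description only.

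**Figure D2:**
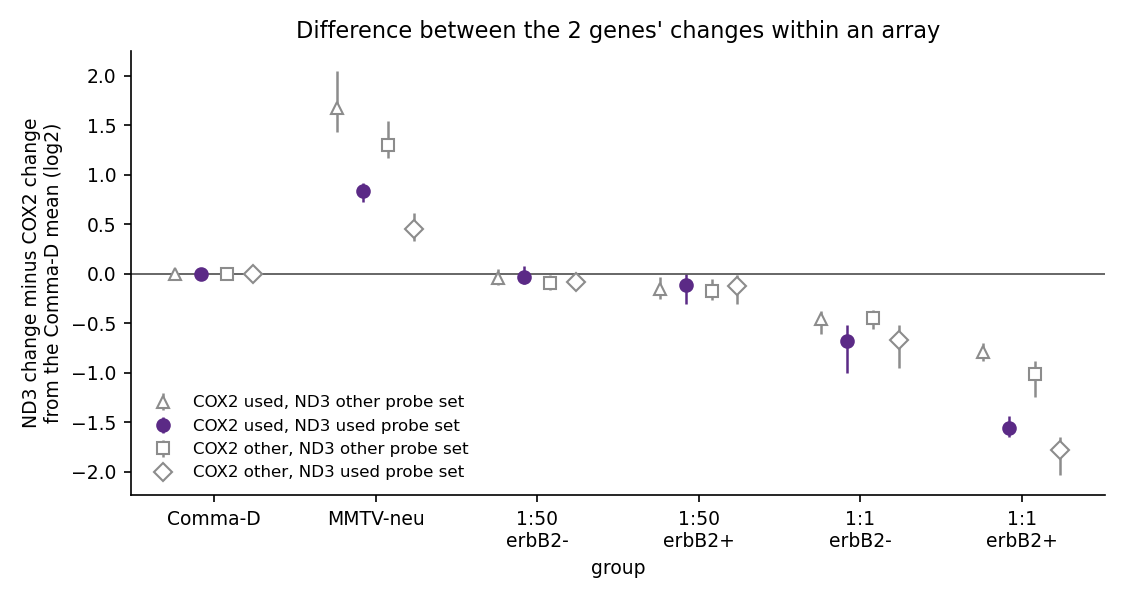
Change of ND3 from its Comma-D mean minus change of COX2 from its Comma-D mean, in log2 units within the same array, for the 4 pairings of the 2 probe sets of each gene. Symbols are means of 3 arrays and bars run from the lowest to the highest array, with the pairing used throughout in purple. All 4 pairings lie above 0 in MMTV-neu, where both genes are near background. They lie close to 0 in both 1:50 fractions and below 0 in both 1:1 fractions, lowest in the 1:1 erbB2-positive fraction.

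Within a co-culture the erbB2-positive and erbB2-negative fractions of the same replicate number were set side by side as pairs. Their deviations from the group means correlated over all genes (r between 0.22 and 0.70 in 6 pairs). Samples of unlike numbers had a median r of -0.024 but reached 0.59. The labels give only the replicate number, so a shared culture is not shown. In the 1:50 co-culture COX2 was higher in the erbB2-positive fraction in all 3 pairs, by 0.43, 0.22 and 0.48 log2 units. ND3 was higher there as well, by 0.23, 0.31 and 0.38. Both genes were lower in the erbB2-positive fraction of every pair from the 1:1 co-culture. The difference there was -0.69, -0.24 and -0.021 for COX2 and -1.27, -1.16 and -1.14 for ND3. The array groups of ND3 did not overlap in that comparison, and those of COX2 did. For ND3 these directions were the same after centring each array on 9 reference genes and after quantile normalization, but the COX2 difference of the 1:1 co-culture turned to 0.27 and 0.036 under these scalings.

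Between the erbB2-positive fractions, ND3 was 1.87 log2 units higher in the 1:50 than in the 1:1 co-culture (SE 0.17), a 3.65-fold difference with no overlap. With the arrays centred on the reference genes it was 1.06, with quantile normalization 1.23, and on the other ND3 probe set 1.05. COX2 was 0.42 higher in the same comparison, also without overlap. That COX2 difference was 0.25 without replicate 1 of the 1:1 erbB2-positive fraction, the array with the lowest COX2 of any fraction. It turned to -0.38 with centring, so no direction is given for COX2 between these fractions. The median and spread of the arrays moved along with ND3, since among the fractions the 1:1 erbB2-positive arrays had the highest medians and the narrowest spread (SD 1.61 to 1.71, against 1.85 to 1.96 in the 1:50 erbB2-positive fraction). Their part in the ND3 difference was not tested.

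Among all 19938 genes, COX2 had the lowest difference of MMTV-neu from Comma-D and ND3 the 4th lowest, on the probe sets used and with MMTV-neu signals near background. Brinp3, at -6.59, and Cd63, a tetraspanin of late endosomes, at -6.57, stood between them. Prdx2, a cytosolic peroxidase, at -6.36, B2m, the light chain of class I antigen-presenting molecules, at -6.31, and Ifitm3, an interferon-induced membrane protein, at -6.23, followed ND3, and all 3 were lower than the -5.70 of the other ND3 probe set. Large differences were frequent among genes of strong signal. Of the 20 genes with the highest signal in Comma-D, 14 were lower in MMTV-neu by 2 log2 units or more and 6 differed by less than 1. Over the 4984 genes of highest signal in Comma-D the median difference was -1.37, and over all genes it was 0.40.

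COX2 and ND3 were set beside the 122 other genes that were at least 4 log2 units lower in MMTV-neu than in Comma-D, each placed on a scale from its MMTV-neu mean (0%) to its Comma-D mean (100%). All these positions share the same arrays of the unmixed lines and were given no test. In the 1:50 erbB2-negative fraction COX2 (97.8%) and ND3 (97.0%) lay at the median of the other genes (98.2%). In the 1:50 erbB2-positive fraction COX2 stood at 103% and ND3 at 102%, above a median of 92.4%, and 3 and 4 genes lay above them. COX2 stood at 101% in the 1:1 erbB2-negative fraction with 1 gene above it, and ND3 at 91.3% with 21 above it, at a median of 85.7%. The widest separation was in the 1:1 erbB2-positive fraction, where the median was 49.5%, ND3 stood at 73.1% with 5 genes above it, and COX2 at 97.2% with 0 above it. Those 5 genes were Rpl21, a ribosomal protein, Thbs1, Vim, Sparc and Fn1, which encode thrombospondin, vimentin, osteonectin and fibronectin. They were named after their values were seen. On its other probe set ND3 stood at 82.5% in that fraction, above the 78.6% of Thbs1 and below the 89.5% of Rpl21.

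A fraction that holds cells of both kinds averages their RNA on the linear scale, so the same comparison was made as a percentage of the Comma-D signal. In the 1:1 erbB2-positive fraction the median of the 122 genes was 19.8% of Comma-D, with ND3 at 29.5% and 15 genes above it, and COX2 at 86.6% with 0 above it. On the linear scale the ND3 probe set used therefore lay closer to the other strongly lower genes than on the log2 scale, whereas COX2 stood apart on both. The other ND3 probe set stood at 50.1% of Comma-D, so the closeness of ND3 to these genes depended on the probe set.

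**Figure D3:**
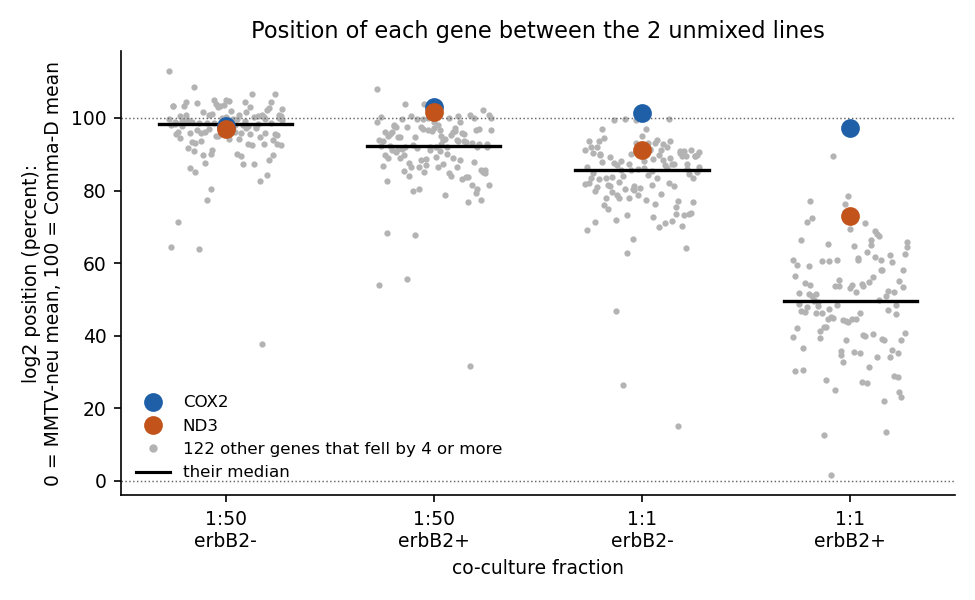
Position of COX2, ND3 and the 122 other genes that were at least 4 log2 units lower in MMTV-neu than in Comma-D, in each co-culture fraction. The vertical axis is the percent of the log2 distance from the MMTV-neu mean (0) to the Comma-D mean (100), each point is the mean of 3 arrays for a gene, and black bars are medians of the 122 genes. In the 1:1 erbB2-positive fraction the bar lies at 49.5%, ND3 at 73.1% and COX2 at 97.2%, above every other point. Only the probe sets used are drawn, and the other ND3 probe set stood at 82.5% in that fraction.

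The genes whose profiles were most like COX2 over the 18 arrays, by Pearson's r of the log2 values, were Rpl21 (0.996) and Rps6 (0.990), which encode ribosomal proteins, Actb (0.988), Thbs1, Fn1, ND3 (0.971), Vim and Sparc. These coefficients are set largely by the 3 MMTV-neu arrays, which lie far from the rest. Over the other 15 arrays the r of COX2 was 0.80 with Rpl21, 0.62 with Actb and 0.55 with ND3. By distance between the group means, expressed as differences from Comma-D, ND3 was the gene closest to COX2, at a root mean square of 0.85 log2 units, followed by Fn1, Ifitm3, Postn and Rpl21.

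ND3 had closer companions than COX2. Its highest r were with S100a11 (0.997), Snord57 (0.996), Fn1, B2m, Ifitm3, Rpl10a, Brinp3 and Postn (0.992). Over the 15 arrays without MMTV-neu the r of ND3 was still 0.96 with S100a11 and B2m and 0.98 with Brinp3. By distance the closest genes were Ifitm3 (0.24 log2 units), B2m (0.26), Fn1 (0.28), Brinp3 (0.30) and Xist (0.36), the RNA of the inactive X chromosome. COX2 was only the 52nd gene by r and the 34th by distance from ND3. All these genes share the same arrays and scaling, so the likeness is a description of these 18 arrays.

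Nuclear-encoded partners of the 2 proteins were tested with limma over all 19938 genes, at a Benjamini-Hochberg adjusted p under 0.05. In MMTV-neu against Comma-D, 56.4% of all genes were higher and 30.4% lower. The median difference was 0.40 over all genes but -1.37 over the 4984 genes of highest signal in Comma-D. Of 15 measured nuclear subunits of complex IV, the complex of COX2, 6 were higher and 8 lower, with a median difference of -0.97. Cox7b was lowest, at -5.14 log2 units (SE 0.25, limma adjusted p 4.63e-11), with Cox6a1 at -4.42, Cox6c at -4.39 and Cox6b1 at -2.87. Of 34 measured nuclear subunits of complex I, the complex of ND3, 5 were higher and 25 lower, with a median of -0.89. In Comma-D 13 of the complex IV and 33 of the complex I subunits lay above the array median. Neither list median was as low as the -1.37 of the genes of highest signal. Ndufb6 stood at -4.02 (SE 0.29, limma adjusted p 5.02e-09), Ndufc2 at -4.01, Ndufb11 at -3.10 and Ndufb5 at -2.97. The lowest of the measured subunit differences was that of Cox7b, smaller in size than those of COX2 and ND3. The 9 reference genes used for centring were themselves mostly lower, 8 of 9, so that centring moved every gene by 1.40. With quantile normalization the subunits of complex IV came to 6 higher and 7 lower and those of complex I to 7 higher and 17 lower. With centring they came to 8 higher and 7 lower and to 17 higher and 10 lower. The 8 subunits named were picked for differences that all exceed 1.40 in size, so that they kept their direction was fixed by that choice.

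Genes that insert, mature and assemble the 2 proteins also went in both directions between MMTV-neu and Comma-D, where 56.4% of all genes were higher and 30.4% lower. Their list medians, -0.22 for complex IV and -0.28 for complex I assembly, were smaller in size than those of the subunits. Of 13 measured genes for COX2 and complex IV assembly, 2 were higher and 6 lower. Cox18 and Oxa1l, inner-membrane insertases that place COX2 in the membrane, stood at -2.88 and -2.08, and Surf1, an assembly factor, at -1.95. Of 15 complex I assembly factors, 3 were higher and 8 lower, with Timmdc1 at -2.20. With quantile normalization these lists came to 4 higher and 6 lower, and to 2 higher and 8 lower. With centring they turned to 10 higher and 3 lower, and to 13 higher and 1 lower, respectively. Cox18, Oxa1l, Surf1 and Timmdc1 differed by more than the 1.40 that centring adds.

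Genes acting on mitochondrial DNA and RNA were lower in part, in the same comparison with 56.4% of all genes higher and 30.4% lower. The median over the 4984 genes of highest signal in Comma-D was -1.37. Of 17 genes of mitochondrial DNA maintenance and transcription, 4 were higher and 8 lower, at a median of -0.10. Tfb2m, the transcription initiation factor, stood at -2.57, Mterf3 at -2.48 and Primpol at -1.85. The polymerase gene Polrmt differed by 0.10 (SE 0.10, limma adjusted p 0.31). Of 19 genes of mitochondrial RNA processing and stability, 15 were lower and 0 higher (0 also at an unadjusted p under 0.05), at a median of -1.05. Pnpt1, a mitochondrial RNA-degrading phosphorylase, stood at -3.12. Hsd17b10, a subunit of the RNase that cuts the precursor, was at -2.46, Mtpap, the mitochondrial poly(A) polymerase, at -2.32, and Grsf1, a protein of the RNA granules, at -2.28. Of 77 mitochondrial ribosomal protein genes, 14 were higher and 48 lower, at a median of -0.71. With centring the numbers higher and lower became 12 and 2 for DNA maintenance and transcription, 8 and 5 for RNA processing and 48 and 9 for the ribosome. With quantile normalization they were 5 and 10, 1 and 13, and 20 and 42. The 2 scalings differed, so no direction is given for these lists as a whole. Of 20 other abundant mitochondrial proteins, 2 were higher and 16 lower, at a median of -1.68. These counts were 8 and 10 with centring and 5 and 12 with quantile normalization. Vdac1, the outer-membrane channel, stood at -4.47 and Sod2, the matrix superoxide dismutase, at -3.22. Their differences were smaller in size than those of COX2 and ND3.

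In the 1:50 erbB2-positive fraction against MMTV-neu, where COX2 was 7.60 and ND3 6.65 log2 units higher, 25.8% of all genes were higher and 57.6% lower. The median over the 4984 genes of highest signal in Comma-D was 1.05. It was 0.52 over the complex IV and 0.55 over the complex I subunits. The nuclear subunits of complex IV came to 8 higher and 6 lower of 15 (6 and 8 with centring), and those of complex I to 19 higher and 7 lower of 34 (10 and 22 with centring). With quantile normalization they were 7 and 6, and 14 and 8. Cox7b rose by 4.76, Cox6c by 4.08, Ndufc2 by 3.70 and Ndufb6 by 3.50. Of the genes of mitochondrial RNA processing, 14 of 19 were higher and 1 lower, led by Pnpt1 at 2.78. These counts were 4 and 8 with centring and 14 and 1 with quantile normalization.

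In the 1:1 erbB2-positive fraction against MMTV-neu, COX2 was 7.18 and ND3 4.79 log2 units higher, while limma called 4.21% of all genes higher and 14.1% lower. The median over the 4984 genes of highest signal in Comma-D was 0.13. Of the nuclear subunits of complex IV, 5 were higher and 1 lower of 15 (5 and 2 with centring), with a median difference of 0.025. Of those of complex I, 5 were higher and 2 lower of 34 (4 and 11 with centring), with a median of 0.022. Cox7b rose by 3.16 (limma adjusted p 2.15e-07), Cox6c by 2.54, Cox6a1 by 1.98 and Cox6b1 by 1.13. Ndufc2 rose by 1.69, Ndufb6 by 1.32, and Ndufs7 and Ndufb11 by 0.99 each. Of the genes of mitochondrial DNA maintenance and transcription limma called 0 of 17 (1 lower at an unadjusted p under 0.05). Of those of RNA processing it called 0 of 19 (3 higher and 2 lower at an unadjusted p under 0.05), with Pnpt1 at 0.79 and a limma adjusted p of 0.064. With centring the calls were 8 and 5 genes lower in these lists, and with quantile normalization none in the first and 3 higher and 1 lower in the second. The count of genes called in this comparison, 3658, was 1362 without replicate 3 and 1814 without replicate 2 of the 1:1 erbB2-positive fraction. Of the calls 23.0% were higher, against 71.0% in a fit of the compared groups only.

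Between the erbB2-positive fractions, 27.4% of all genes were higher and 44% lower in the 1:50 than in the 1:1 co-culture. The median over the 4984 genes of highest signal in Comma-D was 0.92. Here the nuclear subunits of complex IV were 8 higher and 5 lower of 15 (6 and 7 with centring), and those of complex I 21 higher and 3 lower of 34. The list medians were 0.57 and 0.53. Cox6a1 was higher by 2.07, Cox6b1 by 1.68, Ndufb6 by 2.18 and Ndufc2 by 2.01, named as the largest of their lists. ND3 stood at 1.87 on the probe set used and at 1.05 on the other, and COX2 at 0.42. With centring the subunits of complex I turned to 9 higher and 15 lower, whereas these 4 subunits and ND3, which exceeded the shift of 0.81, kept their direction and COX2 did not. With quantile normalization the subunits of complex I came to 14 higher and 6 lower.

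**Figure D4:**
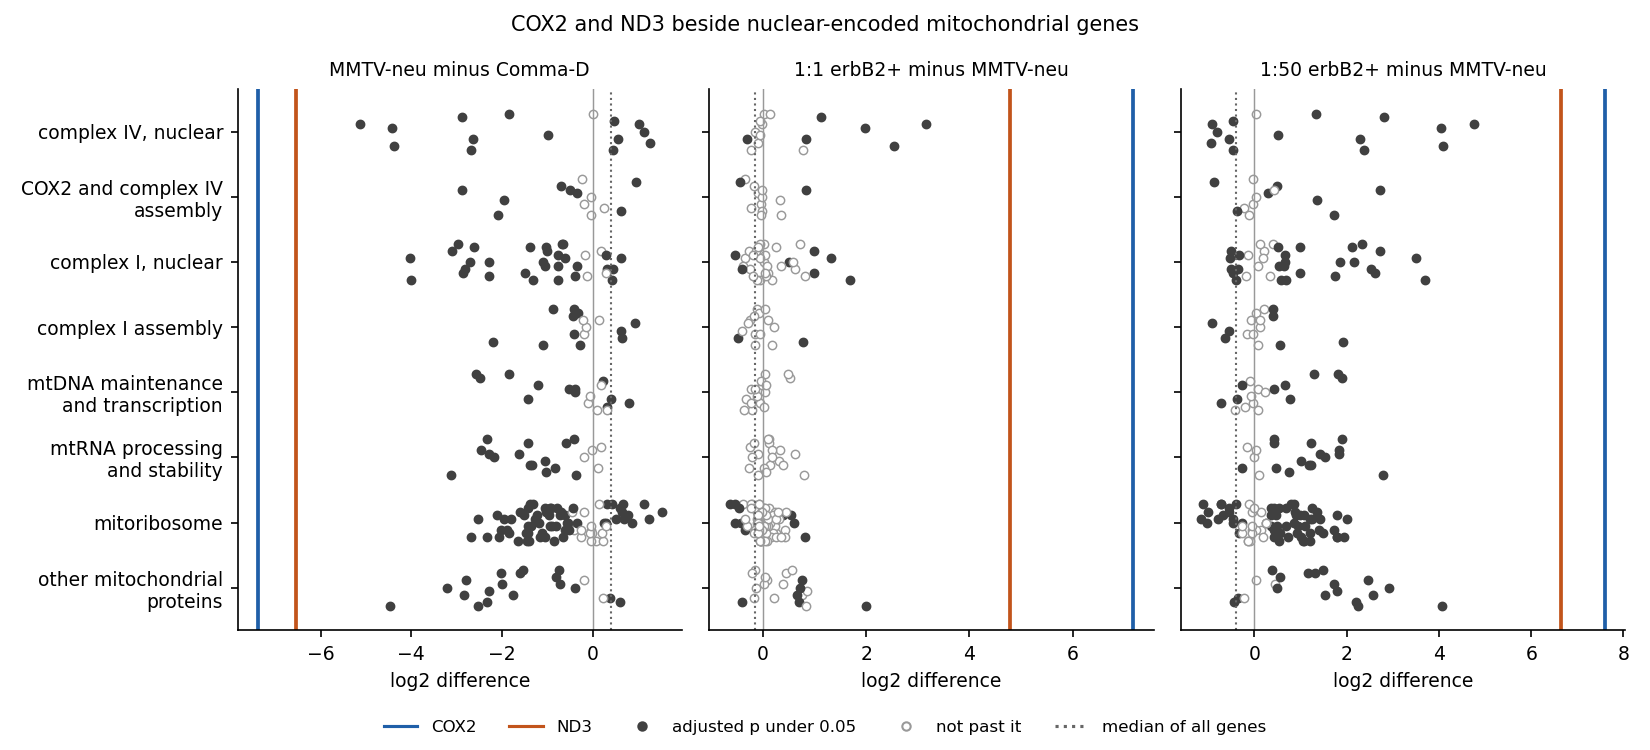
Log2 differences of single genes in 8 lists of nuclear-encoded mitochondrial genes for 3 comparisons, with COX2 (blue line) and ND3 (orange line) drawn across. Filled points passed a limma adjusted p under 0.05, open points did not, and the dotted line is the median of all genes. In the middle panel most points lie near 0 while COX2 stands at 7.18 and ND3 at 4.79.

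Markers of other cell types also differed between MMTV-neu and Comma-D. On the deposited scale, where 56.4% of all genes were higher and 30.4% lower, 8 of 8 endothelial markers were higher, as were 7 of 8 leukocyte markers (1 lower), 5 of 7 adipocyte markers (2 lower) and 5 of 9 fibroblast markers (4 lower). The lower fibroblast markers were Pdgfrb at -3.70, Pdgfra at -3.61, Dcn at -2.70 and Col1a1 at -0.63, the last smaller in size than the 1.40 that centring adds. The mean over the 8 endothelial markers was 5.43 to 5.45 on the Comma-D arrays and 6.36 to 6.46 on the MMTV-neu arrays. The leukocyte mean was 5.51 to 5.55 and 6.17 to 6.38, the adipocyte mean 6.07 to 6.09 and 6.25 to 6.33, and the fibroblast mean 7.58 to 7.66 and 6.92 to 6.98. Single markers lay on both sides of the array median. In MMTV-neu 4 of 8 endothelial, 2 of 8 leukocyte, 3 of 7 adipocyte and 6 of 9 fibroblast markers were above it, and in Comma-D 2, 2, 3 and 6. Ptprc, Pecam1 and Adipoq were below it in both lines, whereas Cd3e (8.07 in MMTV-neu), Cd68, Vwf (7.51), Plin1 (7.38) and Pnpla2 (7.65) were above it in both. Among the fibroblast markers Pdgfrb reached 10.84 and Pdgfra 10.65 in Comma-D. The part of other cells in the COX2 and ND3 differences was not tested.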

How the data were processed

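RNA from 18 samples was measured on Affymetrix-type mouse gene arrays, and the authors deposited 1 table of log2 signals for 35556 probe sets. RMA, R 3.1.2 and limma are named in the submitters' processing notes. The sources used here give no summarisation level and no genome build, so no coordinates are printed. Groups and replicate numbers came from the sample titles. Of the probe sets, 21789 name 1 gene, 1621 name several and 12146 are not in the annotation. Each of 19938 genes was represented by a single-gene probe set, the one of highest mean, without a filter on low signals.

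The genes described and the gene lists were chosen with earlier results of these data known. Beside COX2, ND3 and Ptgs2, the text names up to 4 genes of each list with the largest differences, the 8 genes nearest by r and the 5 nearest by distance, and 3 neighbours in rank. All differences and SEs came from a single limma 3.58.1 fit (R 4.3.3, lmFit and eBayes, 12 residual degrees of freedom), tested on simulated data. Calls are two-sided at p under 0.05 after Benjamini-Hochberg adjustment across the 19938 genes. COX2 and ND3 were not tested.

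Equal replicate numbers were set side by side as pairs only within a co-culture. Every such pair of deviations correlated above 0.1, as did those between the erbB2-positive fractions. Not all of those between a line and any other group did. The main fit had no term for replicate number, so its SEs and calls are unpaired. Alternatives were another probe set, the mean of probe sets, array weights, other priors, 2 scalings (centring on 9 reference genes and quantile normalization), dropping the lowest 40% of genes, a replicate block, the compared groups only, an adjusted p under 0.01 and leaving out each array. Arrays have no read depth, and precision is limited by the number of arrays. Between the 2 most alike arrays the largest difference was 2.30 log2 units, so none was a copy.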

Additional observations from a re-analysis of the deposited data

Results flagged for a closer look

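ND3 differed in opposite directions between the fractions of the co-cultures. The erbB2-positive minus erbB2-negative difference was 0.30 log2 units in the 1:50 co-culture, with all 3 erbB2-positive arrays higher, and -1.19 in the 1:1 co-culture, with all 3 lower. The difference between these differences was not tested.

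The array holds 3 further probe sets that list a mitochondrial gene together with another gene, so no gene name is given for them. Each stood above all arrays of both unmixed lines in at least 1 fraction. Probe set 10353626 had a mean log2 signal of 5.37 in MMTV-neu and 12.51 in Comma-D, and reached 12.72 in the 1:50 and 12.73 in the 1:1 erbB2-positive fraction. Probe set 10598043 read 5.14 in MMTV-neu, 12.54 in Comma-D and 12.73 in the 1:50 erbB2-positive fraction. Both thus had the low MMTV-neu and high 1:1 erbB2-positive signal seen for COX2, where ND3 was lower. Probe set 10598087 had another profile, with 5.21 ± 0.22 (SD, n = 3) in MMTV-neu, 6.58 ± 0.18 in Comma-D, 8.46 ± 0.24 in the 1:1 erbB2-negative, 7.86 ± 0.89 in the 1:50 erbB2-positive and 9.44 ± 0.42 in the 1:1 erbB2-positive fraction.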

How the results depend on the processing

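The differences of COX2 and ND3 from MMTV-neu kept their sign under every alternative run, and scaling moved their size. With centring on reference genes, COX2 differed by -5.99 in MMTV-neu against Comma-D, and stood above MMTV-neu by 5.82 and 6.44 in the 1:50 erbB2-negative and erbB2-positive fractions and by 6.55 and 6.82 in the 1:1 ones. For ND3 the same values were -5.15, 4.95, 5.49, 5.04 and 4.43. Quantile normalization gave 7.62 for COX2 and 5.42 for ND3 in the 1:1 erbB2-positive fraction. The other probe sets, chosen after seeing the data, gave COX2 -7.00, 6.88, 7.23 and 7.09 and ND3 -5.70, 5.50, 5.76 and 5.35 in the first 4 of these comparisons, and the mean of probe sets gave ND3 -6.13, 5.92, 6.21 and 5.66. The ND3 change minus the COX2 change in MMTV-neu was 1.02 with quantile normalization, 1.07 with the mean of probe sets and 1.30 on the other probe sets. In the 1:1 erbB2-positive fraction these 3 settings gave -1.18, -1.28 and -1.01. In the 1:1 erbB2-negative fraction it was -0.49 with quantile normalization, -0.52 with array weights and -0.44 on the other probe sets, and -0.76 to -0.52 when single arrays were left out. Between the erbB2-positive fractions COX2 turned to -0.38 with centring. Within the 1:1 co-culture it turned to 0.27 with centring and 0.036 with quantile normalization, and ND3 between the erbB2-negative fractions turned to -0.084 with centring. The replicate block left every difference of COX2 and ND3 as it was. It called 17423, 16791, 4574 and 14564 genes in the 4 tested comparisons and 11 subunits of complex I (7 without it) in the 1:1 erbB2-positive fraction against MMTV-neu, where the numbers do not pair the samples. Genes called in that comparison were 3658, but 9928 with centring, 5926 with array weights, 793 in a fit of the compared groups, 1158 at an adjusted p under 0.01 and 1362 to 4963 without single arrays. Without the lowest 40% of genes the 4 comparisons called 9895, 9102, 1127 and 8666, since fewer genes were tested. Complex I subunits called in that comparison were 15 with centring, 12 with array weights, 4 with the compared groups, 4 at an adjusted p under 0.01 and 5 to 12 without single arrays. Between the erbB2-positive fractions 15 passed an adjusted p under 0.01, against 24. Centring moved the share of calls that were higher from 65.0% to 89.6% in MMTV-neu against Comma-D, from 30.9% to 9.33% and from 23.0% to 5.33% in the 1:50 and 1:1 erbB2-positive fractions against MMTV-neu, and from 38.4% to 11.4% between those fractions, and quantile normalization moved the 23.0% to 36.3%. Without the lowest 40% of genes these 4 shares were 41.7%, 54.5%, 63.1% and 60.6%. In a fit of the compared groups the share in the 1:1 erbB2-positive fraction against MMTV-neu was 71.0%. Which direction held most calls thus depended on the setting. The causes were not tested. With 3 arrays a group and signals near background in MMTV-neu, sizes there are the least certain.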
